A study of Mus musculus with 10 samples.

Results

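The neuronal cytoskeleton and neurofilament genes described here are Nefl, Nefm, Nefh, Ina, Prph, Tubb3, Map2, Mapt, Stmn2 and Dcx, 10 of the 16593 genes with a symbol on the array. They were taken by the platform's gene symbol, with all 17 of their probes. Of these probes 12 passed the detection filter, a detection p-value under 0.01 on at least 2 of the 10 arrays, so that 9 of the 10 genes were tested. Nefl was not tested and is given by its values. RNA levels were read on Illumina MouseRef-8 bead arrays from cells sorted from mouse motor neuron preparations of 3 origins. All 6 groups carried the Hb9::GFP transgene, which puts green fluorescent protein (GFP) under a motor neuron promoter, and all were sorted by fluorescence. Embryonic cells were dissected from the spinal cord of C57BL/6 embryos at E13.5 and gave 2 GFP-high and 2 GFP-medium arrays. ES-derived cells were differentiated from 1 embryonic stem cell line, V6.5, and gave 2 arrays a gate. Induced cells were embryonic fibroblasts, C57BL/6 by background, reprogrammed by overexpressing 10 transcription factors, and gave 1 array a gate. No group lacked the transgene, and the labels do not say whether replicates came from separate animals or cultures.

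Microtubules and neurofilaments give the axon and dendrites their shape and calibre. Tubulin polymers are stabilised by microtubule-associated proteins and taken apart with the help of stathmins, while the neurofilament subunits assemble into intermediate filaments that fill large axons. Motor neurons, with their long and thick axons, are known for abundant neurofilament protein. Most of these genes are used widely as markers of neuronal differentiation, and Dcx and Tubb3 mark young neurons.

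Signal differed widely between arrays. Mean deposited intensity ran from 51.3 to 577.2 on 9 arrays and was 3.16 on ES-derived GFP-high replicate 1. That array detected 2095 probes, against 6921 to 11441 on the others, and its lowest detected level was 8.68 on the normalized log2 scale, against 4.69 to 5.68. The other 2 arrays of mean intensity under 100 were embryonic GFP-medium replicate 1 and ES-derived GFP-medium replicate 1. Results that rest on these arrays are given with and without them. Exceptions are the medians of related gene lists and the correlations between probes of a gene, which were taken over all 10 arrays. Marker lists were read on the same scale, as levels summed over the genes of a list. Of 9 neuronal markers, 4 to 7 were detected per array. Snap25 and L1cam were detected on no array. Of 8 motor neuron markers, 2 to 5 were detected per array. Mnx1, which encodes Hb9, was detected only on the 2 induced arrays, and Slc18a3 only on ES-derived GFP-medium replicate 2. The sum of 7 skeletal muscle markers lay between 4880 and 8943 on embryonic arrays, against 149 to 932 on ES-derived and 156 to 201 on induced arrays. Fibroblast markers, 10 genes, summed to 2465 to 4585, 277 to 880 and 339 to 542 in the same order. Neural progenitor and radial glia markers, 8 genes, summed to 1069 to 1646, 210 to 650 and 299 to 307, and 4 blood markers to 872 to 1960, 79.9 to 118 and 83.5 to 110. Blood markers were detected on no ES-derived or induced array, so their sums there are background. Muscle markers detected per array were 1 to 3 in ES-derived and 0 to 1 in induced cells. Fibroblast markers detected were 0 to 5 and 1 to 4 in the same order, and progenitor markers 0 to 5 and 3. A sum with few genes detected is largely background. The sums of these lists moved with origin, and their part in the differences between origins below was not tested.

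Levels are normalized log2 intensities of 1 probe a gene, and a level of 1 gene cannot be set against that of another. A probe counts as detected on an array at a detection p-value under 0.01. Differences were fitted with limma over all 10 arrays and 9679 features, are given with their standard error (SE), and a gene counts as called where its Benjamini-Hochberg adjusted p is under 0.05. None of the 9 genes tested was called in any of 7 comparisons. The arrays measure RNA of many sorted cells together, so fewer neurons among the cells and less RNA per neuron cannot be told apart.

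**Figure D1:**
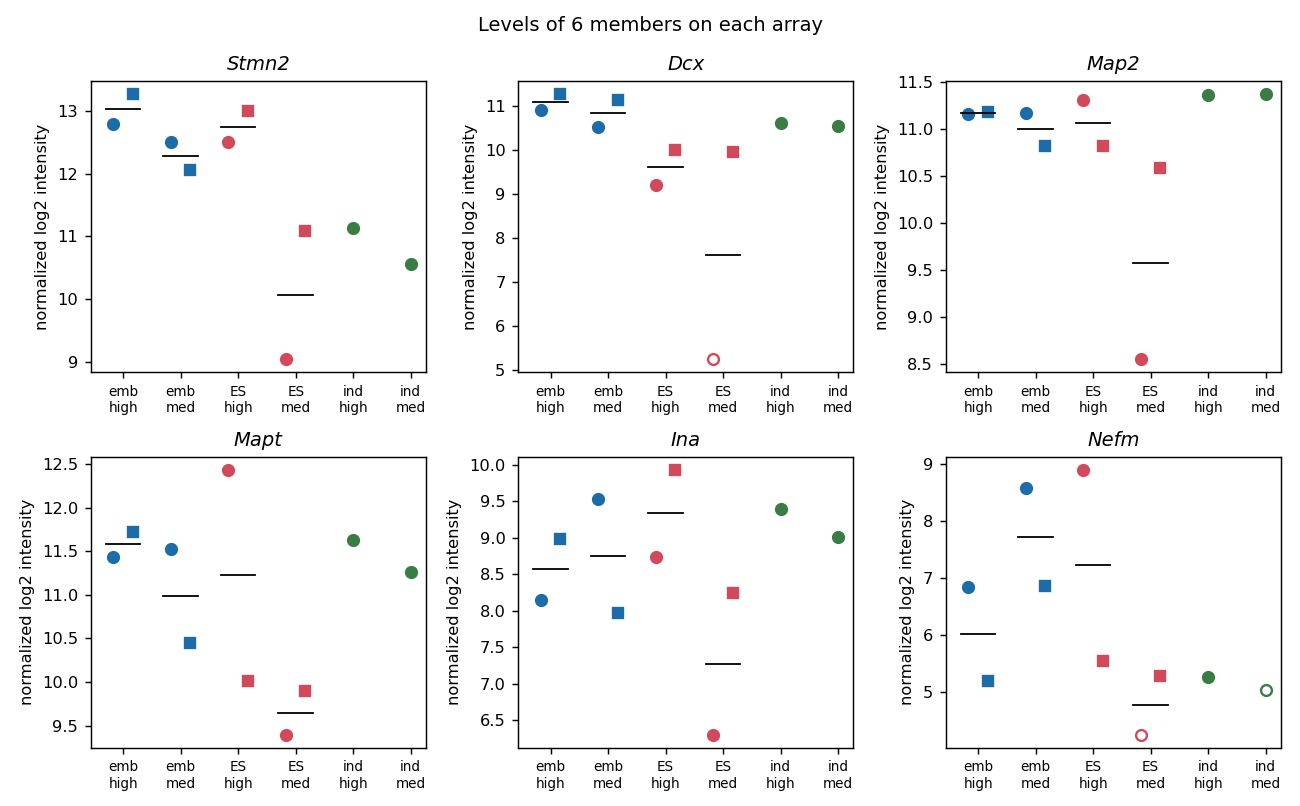
Normalized log2 intensity (y axis) of the 6 genes detected on at least 6 arrays, by origin and gate (x axis: emb, embryonic; ES, ES-derived; ind, induced; high and med, the GFP gates). Circles are replicate 1 (also the single induced arrays), squares are replicate 2, open symbols are not detected and bars are means of 2 arrays; the y axes do not start at 0. ES-derived GFP-medium replicate 1 is the lowest of the 10 arrays for all 6 genes.

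Stmn2 encodes stathmin-2, a neuronal regulator of microtubule dynamics needed for axon growth and repair. In embryonic cells it measured 12.79 and 13.26 in the GFP-high replicates 1 and 2 and 12.51 and 12.05 in the GFP-medium ones. In ES-derived cells it measured 12.50 and 12.995 in GFP-high and 9.05 and 11.09 in GFP-medium. In induced cells it measured 11.14 in GFP-high and 10.56 in GFP-medium. The GFP-high array or arrays of every origin were above the GFP-medium ones of that origin, and both induced arrays were below all 4 embryonic arrays. The origin means were 12.65 ± 0.51 (SD, n = 4) in embryonic, 11.41 ± 1.77 (SD, n = 4) in ES-derived and 10.85 ± 0.41 (SD, n = 2) in induced cells. Induced minus embryonic was -1.81 ± 0.70 (SE), with an adjusted p of 0.305. The same contrast was called when the 3 arrays of mean intensity under 100 were left out, at -1.66 ± 0.36 with an adjusted p of 0.0207, where 17.4% of all 9679 features were called, against 1.27% over 10 arrays. ES-derived minus embryonic was -1.25 ± 0.57 (adjusted p = 0.465) and came to -0.62 without ES-derived GFP-medium replicate 1. Induced minus ES-derived was -0.56 ± 0.70, with an adjusted p of 0.808.

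Dcx encodes doublecortin, a microtubule-binding protein of migrating and young neurons. In embryonic cells it measured 10.90 and 11.27 in GFP-high and 10.52 and 11.14 in GFP-medium, replicates 1 and 2. In ES-derived cells it measured 9.20 and 10.01 in GFP-high, and 5.25 (not detected) and 9.96 in GFP-medium. In induced cells it measured 10.62 and 10.56 in GFP-high and GFP-medium. All 4 ES-derived arrays lay below all 4 embryonic ones and below both induced ones, while the induced arrays lay within the embryonic range. ES-derived minus embryonic was -2.36 ± 0.89 with an adjusted p of 0.351, a difference of 5.12-fold in the means. Without ES-derived GFP-medium replicate 1 it was -1.24 ± 0.37 (adjusted p = 0.265). With the 3 arrays of mean intensity under 100 left out it was -1.12 ± 0.27 (adjusted p = 0.0693). Induced minus ES-derived was 1.98 ± 1.09 (adjusted p = 0.541), and 0.61 without those 3 arrays. A further Dcx probe, ILMN_2931623, gave the same order of arrays at the low end. It measured 4.55 on ES-derived GFP-medium replicate 1 and 6.57 on ES-derived GFP-high replicate 1, both not detected, and 9.33 to 10.65 on the other 8 arrays. The correlation of its levels with those of ILMN_1228206, the probe used, was 0.95 over the 10 arrays, which the same array depths enter on both sides. Both probes were lowest on ES-derived GFP-medium replicate 1, and their correlation without that array was not computed. The third Dcx probe, ILMN_1256251, was detected on 0 of 10 arrays.

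Map2 encodes microtubule-associated protein 2, which stabilises dendritic microtubules. In embryonic cells it measured 11.16 and 11.19 in GFP-high and 11.17 and 10.82 in GFP-medium. In ES-derived cells it measured 11.31 and 10.82 in GFP-high and 8.56 and 10.59 in GFP-medium. In induced cells it measured 11.36 in GFP-high and 11.37 in GFP-medium. Both induced arrays were above all embryonic and all ES-derived arrays by a small margin, and 1 array, ES-derived GFP-medium replicate 1, was far below the rest. The origin means were 11.08 ± 0.18 (SD, n = 4), 10.32 ± 1.21 (SD, n = 4) and 11.37 ± 0.01 (SD, n = 2) in embryonic, ES-derived and induced cells. Induced minus ES-derived was 1.05 ± 0.62 (adjusted p = 0.566) and came to 0.50 without ES-derived GFP-medium replicate 1. Induced minus embryonic was 0.28 ± 0.62, with an adjusted p of 0.949.

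Mapt encodes tau, the axonal microtubule-associated protein. In embryonic cells it measured 11.44 and 11.72 in GFP-high and 11.53 and 10.45 in GFP-medium. In ES-derived cells it measured 12.44 and 10.02 in GFP-high and 9.40 and 9.90 in GFP-medium. In induced cells it measured 11.63 in GFP-high and 11.27 in GFP-medium. Of the 4 ES-derived arrays 3 were below every embryonic and induced array, and the fourth, the dimmest array of the series, was above them all. The deposited intensity behind that highest level was 100.8, against 3947.7 and 4544.4 on the ES-derived replicate 2 arrays. ES-derived minus embryonic was -0.85 ± 0.55 (adjusted p = 0.624) and -1.44 ± 0.34 without the dimmest array (adjusted p = 0.0569). Induced minus ES-derived was 1.01 ± 0.68 (adjusted p = 0.623). It was called without the 3 arrays of mean intensity under 100, at 1.49 ± 0.36 with an adjusted p of 0.0382, where 11.4% of all features were called, against 0.806% over 10 arrays. Another Mapt probe, ILMN_3107817, was detected on 7 arrays at levels up to 6.23 and did not follow the probe used: the correlation of their levels was -0.10 over 10 arrays. The remaining Mapt probes were detected on 2 arrays and on 0.

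Tubb3 encodes class III beta-tubulin, the neuronal tubulin isotype that antibodies to young neurons commonly recognise. Its only probe, ILMN_1252657, was detected on 2 arrays, embryonic GFP-high replicate 1 at 4.75 and embryonic GFP-medium replicate 2 at 5.06. On the other 8 arrays it measured 4.27 to 5.17 and was not detected. No origin stood apart, and ES-derived minus embryonic was -0.10 ± 0.33, with an adjusted p of 0.940. A probe this near background measures little of its gene.

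**Figure D2:**
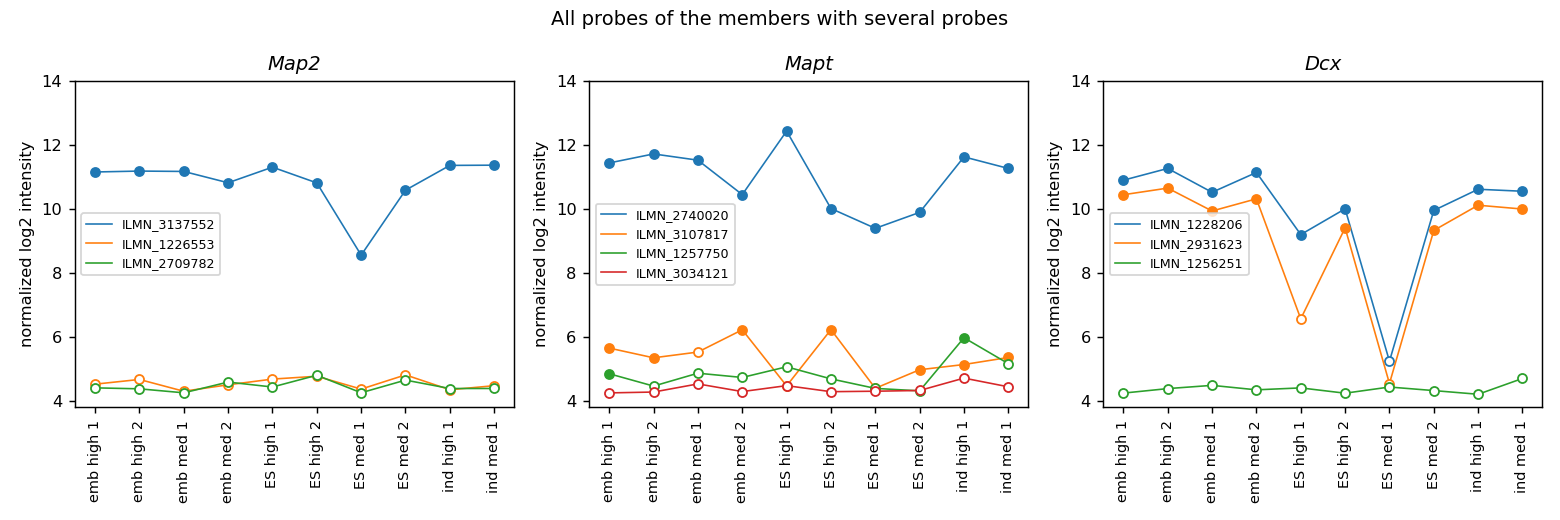
Normalized log2 intensity (y axis, not from 0) of every probe of Map2, Mapt and Dcx on each of the 10 arrays (x axis); filled points are detected, open points are not. In each gene 1 probe reaches levels over 8 on most arrays, for Dcx 2 probes do, and the others do not exceed 6.23.

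Among the intermediate filament genes, Ina, which encodes alpha-internexin, a subunit made early in neuronal differentiation, was the one detected on all 10 arrays. In embryonic cells it measured 8.15 and 8.99 in GFP-high and 9.53 and 7.97 in GFP-medium. In ES-derived cells it measured 8.74 and 9.93 in GFP-high and 6.30 and 8.25 in GFP-medium. In induced cells it measured 9.40 in GFP-high and 9.01 in GFP-medium. The ES-derived level of 8.74 was on the dimmest array, at a deposited intensity of 10.7, just above that array's lowest detected level of 8.68. The 3 origins overlapped, and ES-derived GFP-medium replicate 1 was the lowest array. Induced minus embryonic was 0.55 ± 0.81 (adjusted p = 0.906) and ES-derived minus embryonic was -0.36 ± 0.66 (adjusted p = 0.881). The latter was 0.26 without ES-derived GFP-medium replicate 1, so its sign rested on that array.

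Nefm encodes the medium neurofilament subunit. In embryonic cells it measured 6.85 and 5.18 in GFP-high and 8.58 and 6.85 in GFP-medium. In ES-derived cells it measured 8.90 and 5.55 in GFP-high, and 4.25 (not detected) and 5.28 in GFP-medium. In induced cells it measured 5.27 in GFP-high and 5.03 (not detected) in GFP-medium. Both embryonic GFP-medium arrays were at or above the higher GFP-high array, and the highest level of all was on the dimmest array, at a deposited intensity of 11.3. Induced minus embryonic was -1.72 ± 1.23 (adjusted p = 0.686), with 1 induced array inside the embryonic range. ES-derived minus embryonic was -0.87 ± 1.00 (adjusted p = 0.795) and -1.92 without the dimmest array.

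Nefh encodes the heavy subunit, whose phosphorylated tails space the filaments of mature axons. It was detected on both induced arrays, at 5.84 in GFP-high and 5.75 in GFP-medium. Among embryonic arrays it was detected on GFP-high replicate 2, at 5.10, and the others measured 4.46 to 5.35. Among ES-derived arrays it was detected on GFP-high replicate 1, at 9.51, while the others measured 4.66 to 5.08. The 2 induced arrays were thus above all embryonic arrays, at deposited intensities of 28.7 and 18.3, and the 1 high ES-derived level was a deposited intensity of 13.9 on the dimmest array. Induced minus embryonic was 0.95 ± 1.12, with an adjusted p of 0.867. Without the 3 arrays of mean intensity under 100 it was called, at 1.16 ± 0.30 with an adjusted p of 0.0372, where 17.4% of all features were called. Of the 3 embryonic arrays that remained 2 did not detect it. ES-derived minus embryonic was 1.15 ± 0.92 (adjusted p = 0.695) and -0.00286 without the dimmest array.

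Nefl, the light subunit on which the other neurofilament proteins assemble, was detected on 0 of 10 arrays. Its only probe, ILMN_2679784, measured 4.24 to 5.88. Prph encodes peripherin, an intermediate filament protein of motor and peripheral neurons. It was detected on embryonic GFP-high replicate 1 at 4.73 and on embryonic GFP-medium replicate 2 at 5.43, and on no ES-derived or induced array. Both induced arrays, at 4.29 and 4.20, lay below all embryonic arrays, but as values not above background they bound the gene and do not measure it. Induced minus embryonic was -0.60 ± 0.90 (adjusted p = 0.910).

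**Figure D3:**
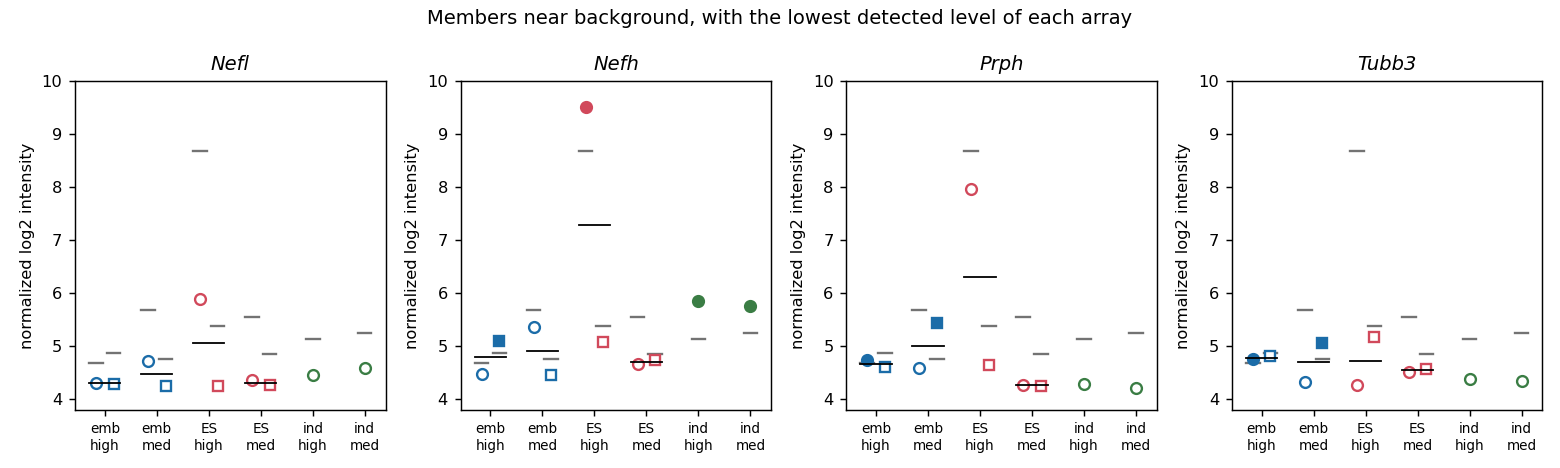
Normalized log2 intensity (y axis, not from 0) of the 4 genes near background by origin and gate (x axis, abbreviated as before). Filled symbols are detected, open symbols are not, black bars are means of 2 arrays and grey bars mark the lowest detected level of each array, which is 8.68 on ES-derived GFP-high replicate 1.

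Counted over the 9 genes tested, ES-derived minus embryonic differences were above 0 for 2 and below 0 for 7, against 41.1% of all features above 0, with a median of -0.77 against -0.13 over all 9679 features. The 2 above 0 were Nefh and Prph. Among ES-derived arrays Nefh was detected on the dimmest alone and Prph on 0. With detection required on at least 5 arrays 6 of the genes were left. All 6 were below 0, with a median of -0.86 against -0.21. Under median scaling of the 9 genes 1 was above 0, with a median of -1.91 against -0.58. The median was -0.22 against -0.14 without ES-derived GFP-medium replicate 1. It was -0.24 against -0.19 without embryonic GFP-medium replicate 1, and 3 were above 0 in each case. Without ES-derived GFP-high replicate 1 it was -1.02 against 0.03, with 1 above 0. Without the 3 arrays of mean intensity under 100 it was -0.47 against 0.02, with 3 above 0. The distance of the median from that of all features thus changed with the arrays used. Of all features 0.899% were called in this comparison and none of the 9 genes was. Groups that did not overlap were found for 1 gene, Dcx, on the lower side, where 5.06% of all features stood. For induced minus embryonic cells 4 differences were above 0 and 5 below, against 48.6% of features above 0, with a median of -0.37 against -0.02. Of all features 1.27% were called and none of the 9 genes. Nefh and Map2 did not overlap on the higher side, where 20.3% of features stood, and Stmn2 and Prph on the lower side, where 20% of features stood. Prph passed the detection filter through 2 embryonic arrays alone. No induced array detected it, so its place on the lower side does not measure the gene. For induced minus ES-derived cells 4 were above 0 and 5 below, against 53.9% of features above 0, with a median of -0.20 against 0.08, and of 0.91 against -0.06 without ES-derived GFP-high replicate 1. Of all features 0.806% were called and none of the 9 genes. Map2 and Dcx did not overlap on the higher side, with 13.9% of features. The counts of non-overlapping genes in the comparisons with induced cells are near the background for groups of 4 and 2 arrays. The comparisons between origins share arrays, so their counts are not independent.

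**Figure D4:**
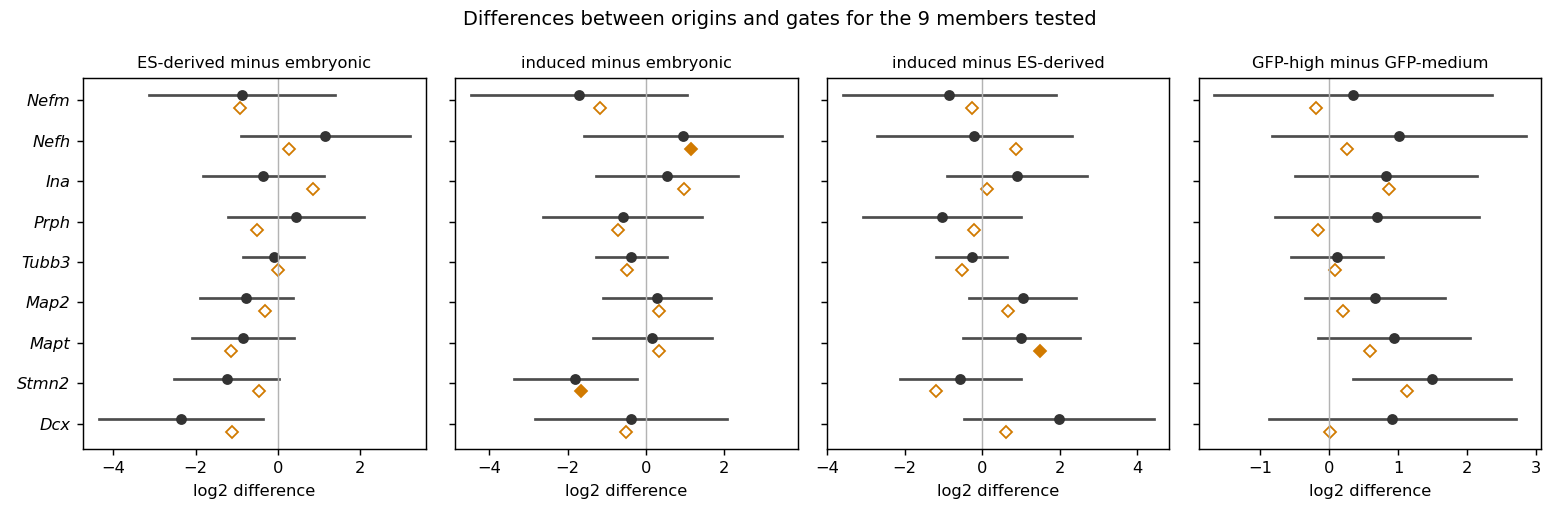
Log2 difference (x axis) of each of the 9 genes tested (y axis) in 4 comparisons. Dark points with bars are the fit on 10 arrays with its 95% confidence interval, none called; diamonds leave out the 3 arrays of mean intensity under 100 and are filled where called, which is Nefh and Stmn2 for induced minus embryonic and Mapt for induced minus ES-derived.

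GFP-high cells had higher mean levels than GFP-medium cells for all 9 genes in the fit over the 3 origins, and for 8 of 9 when arrays were scaled to a common median in place of quantile normalization. The median difference was 0.83, against -0.06 over all features, of which 45.1% were above 0. Among the 9 genes, Tubb3 and Prph were detected on 1 array of each gate, and Nefh on 3 GFP-high arrays and 1 GFP-medium array. Their differences are thus largely between values near background. No gene passed the limma test at an adjusted p under 0.05, and no feature of the 9679 did (0% called; 201 features, 2.08%, had an unadjusted p under 0.05, with Stmn2 as the 1 of the 9 genes among them). Stmn2 had the largest difference, 1.48 ± 0.51, with an adjusted p of 0.962, and 0.99 ± 0.33 without ES-derived GFP-medium replicate 1. Mapt differed by 0.94 ± 0.49 and came to 0.47 without ES-derived GFP-high replicate 1. Dcx differed by 0.91 ± 0.80 and came to 0.02 without ES-derived GFP-medium replicate 1. The count above 0 was 7 of 9 without ES-derived GFP-high replicate 1, with Nefm at -0.49 and Prph at -0.02, and the median was then 0.46. It was 8 of 9 with a median of 0.34 without ES-derived GFP-medium replicate 1, and 7 of 9 with a median of 0.15 without both of these arrays, a choice added after seeing the data.

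Within ES-derived cells, GFP-high minus GFP-medium was above 0 for all 9 genes and for 40.5% of all features, with a median of 2.04 against -0.20 over all features. Under median scaling 7 of 9 were above 0, with a median of 0.26 against -0.65, and without the dimmest array the 9 genes had a median of 0.78 against 0.06. Without ES-derived GFP-medium replicate 1, 8 of 9 were above 0, with a median of 1.33 against -0.26. The 2 GFP-high arrays were above both GFP-medium arrays for 7 genes, all but Dcx and Tubb3, where 10.9% of features stood. Prph is among the 7 although no ES-derived array detected it. Stmn2 differed by 2.68 ± 0.74 (adjusted p = 0.629) and Ina by 2.06 ± 0.88 (adjusted p = 0.629). Nefh was detected on 1 of the 2 GFP-high arrays, the dimmest one, and on neither GFP-medium array, so no fold is given for it. No feature of 9679 was called (0%), and 738 (7.62%) had an unadjusted p under 0.05, with Stmn2 and Ina among them. Without ES-derived GFP-high replicate 2 the dimmest array stands alone in its group, and is assumed to vary like the arrays of the other groups. In that fit 27.6% of all features were called, among them Nefh (4.80), Nefm (4.13), Prph (3.70) and Mapt (2.79), although no ES-derived array detected Prph and neither GFP-medium array detected Nefh. With both replicate 1 arrays left out, Stmn2 differed by 1.91, Ina by 1.68, Nefm by 0.27, Map2 by 0.23, Mapt by 0.12 and Dcx by 0.05 between the remaining 2 arrays. Tubb3, Prph and Nefh, detected on neither, differed by 0.61, 0.39 and 0.34. That choice was added after seeing the data.

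Within embryonic cells the same difference was above 0 for 5 of 9 genes and 57.4% of features, with a median of 0.08 against 0.07 over all features. Without embryonic GFP-medium replicate 1 the median was 0.33 against 0.002. Under median scaling it was 1.24 against 0.94, with 6 of 9 above 0. In the fit over all 10 arrays Stmn2 was 0.75 ± 0.74, with both GFP-high arrays above both GFP-medium arrays. Nefm was -1.70 ± 1.19, with both GFP-high arrays below the GFP-medium ones. The nearest Nefm levels of the gates were almost equal, 6.848 on GFP-high replicate 1 and 6.853 on GFP-medium replicate 2. The highest, 8.58, was on GFP-medium replicate 1, an array of mean intensity under 100. The gates did not overlap, in 1 direction or the other, for these 2 of 9 genes and for 21.9% of features. No feature of 9679 was called (0%), and 6 (0.062%) had an unadjusted p under 0.05, none of them among the 9 genes. In induced cells, with 1 array a gate and no test, GFP-high minus GFP-medium was 0.57 for Stmn2, 0.38 for Ina, 0.36 for Mapt, 0.06 for Dcx and -0.01 for Map2. The gate difference in ES-derived cells was larger than that in embryonic cells by a median of 1.93 over the 9 genes, against -0.30 over all features. That median was 0.91 without ES-derived GFP-medium replicate 1. It was 1.07 with the dimmest array left out and 0.52 with both left out. Under median scaling these medians were -0.48 and -1.67, with 4 of the 9 genes above 0. The difference was above 0 for all 9 genes and for 37% of features. Tested as an interaction, none was called, as for all features (0%; 156 features, 1.61%, had an unadjusted p under 0.05). Nefm, at 4.16 ± 1.69, was the 1 gene among those, with an adjusted p of 0.9986, and came to 1.97 without the ES-derived replicate 1 arrays. Without ES-derived GFP-high replicate 2, which again leaves the dimmest array alone in its group, 14.5% of all features were called, with Nefh, Nefm and Prph among them.

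For the 6 genes detected on at least 6 arrays 1 array stood apart. Centred on each gene's mean, their mean level was -2.59 on ES-derived GFP-medium replicate 1 and between -0.55 and 0.92 on the other 9 arrays. Of the 9 genes tested, 7 were below all embryonic arrays on that array, namely Dcx, Ina, Map2, Mapt, Nefm, Prph and Stmn2, where 36.1% of features stood. Its partner in the same gate, ES-derived GFP-medium replicate 2, had 5 of 9 below all embryonic arrays, against 20% of all features. The counts were 2 and 3 on the GFP-high replicates 1 and 2 of ES-derived cells, against 55.2% and 27.4% of features, and 2 and 3 on the GFP-high and GFP-medium arrays of induced cells, against 28.2% and 28.9%. Prph was detected on none of the ES-derived or induced arrays, so its part in these counts does not measure it. The 8 pluripotency markers summed to 26403 on ES-derived GFP-medium replicate 1, with 7 of 8 detected. They summed to 1151 and 2261 on the ES-derived replicate 2 arrays, with 7 of 8 detected on each. On the dimmest array they summed to 3459, with 2 of 8 detected, and on embryonic and induced arrays to 237 to 327. The 9 neuronal markers summed to 1056 on ES-derived GFP-medium replicate 1, against 3106 to 8238 on the other 9. The highest of these sums was on the dimmest array. The 8 motor neuron markers summed to 225 on ES-derived GFP-medium replicate 1, against 873 to 4480. The part of these markers in the levels of the 9 genes was not tested.

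**Figure D5:**
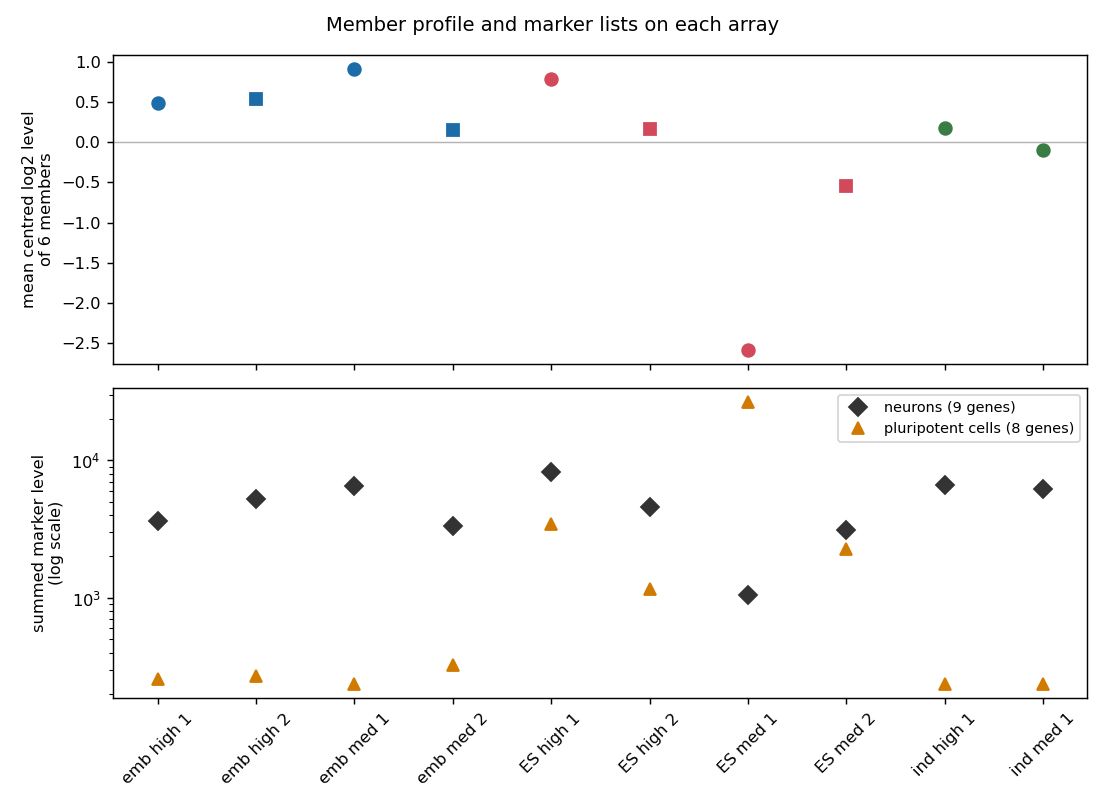
Upper panel: mean of the centred log2 levels of Stmn2, Dcx, Map2, Mapt, Ina and Nefm on each array (x axis; circles replicate 1, squares replicate 2, colours by origin). Lower panel: level summed over neuronal and pluripotency markers, on a log axis; ES-derived GFP-medium replicate 1 has the lowest profile (-2.59), the lowest neuronal sum (1056) and the highest pluripotency sum (26403).

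Correlations of levels among the 6 genes changed when that array was left out. Over 10 arrays they ran from 0.29, for Nefm with Ina and with Dcx, to 0.90 for Map2 with Dcx. Over the 9 arrays without ES-derived GFP-medium replicate 1, a choice added after seeing the data, they ran from -0.36 for Nefm with Dcx to 0.88 for Map2 with Mapt. Map2 with Dcx then came to 0.07 and Ina with Map2 to 0.29, from 0.81 over 10 arrays. These values describe 10 arrays of unequal signal, which all genes of an array share. Among 6296 other genes detected on at least 6 arrays, the 5 whose levels were most like the mean profile of the 6 were Nrcam at 0.99, Ppm1e at 0.97, Vps35l at 0.95, Rtn1 at 0.95 and Ube2n at 0.94. Nrcam encodes a neuronal cell adhesion molecule of axons, and Rtn1 a reticulon of neuronal endoplasmic reticulum. Without the dimmest array Nrcam, Rtn1 and Ppm1e were the first 3, and Vps35l and Ube2n came to ranks 13 and 18. Without ES-derived GFP-medium replicate 1 Nrcam, at 0.97, was still the first, and the other 4 lay between 0.73 and 0.85, at ranks 7 to 68.

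Promoters are shown for Map2, Ina and Dcx, the 3 of the 6 genes detected on at least 6 arrays that have an entry in the promoter table, and were chosen after their levels were seen. The sequences are from RefSeq (GRCm38.p6) and span 250 bases before to 50 after an annotated start. Of the 10 genes 5 matched an entry. Map2 is at chr1:66175079-66175378 on the + strand, Ina at chr19:47014431-47014730 on the + strand and Dcx, the first of its entries, at chrX:143933170-143933469 on the - strand. Letters run 5′ to 3′ in lower case, and capitals mark matches on either strand to GGGCGG, the core of an Sp1-type GC box, to TAATTA, the core of many homeodomain sites, and to TATAAA, the TATA box.
Map2: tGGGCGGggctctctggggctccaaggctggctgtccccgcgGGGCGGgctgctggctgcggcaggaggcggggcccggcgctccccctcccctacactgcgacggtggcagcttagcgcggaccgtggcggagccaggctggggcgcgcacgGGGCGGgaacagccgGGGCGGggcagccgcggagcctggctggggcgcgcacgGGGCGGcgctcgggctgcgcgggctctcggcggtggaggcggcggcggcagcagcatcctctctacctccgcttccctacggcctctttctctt
Ina: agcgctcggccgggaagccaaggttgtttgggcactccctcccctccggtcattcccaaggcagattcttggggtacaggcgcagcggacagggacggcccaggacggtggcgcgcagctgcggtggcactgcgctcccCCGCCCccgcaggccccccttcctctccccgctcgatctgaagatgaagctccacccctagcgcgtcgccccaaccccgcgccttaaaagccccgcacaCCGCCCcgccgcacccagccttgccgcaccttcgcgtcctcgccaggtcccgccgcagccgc
Dcx: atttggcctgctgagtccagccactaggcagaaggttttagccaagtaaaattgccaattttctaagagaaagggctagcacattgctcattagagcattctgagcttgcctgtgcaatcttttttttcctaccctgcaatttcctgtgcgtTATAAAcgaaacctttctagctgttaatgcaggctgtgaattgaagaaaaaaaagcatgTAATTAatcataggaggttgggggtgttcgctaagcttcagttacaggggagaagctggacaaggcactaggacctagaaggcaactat
Map2 held 5 matches to GGGCGG and Ina 2, while Dcx held none. At least 1 was held by 35.7% of all 32851 promoters of 300 bases. Dcx held 1 match to TAATTA, found in 5.29% of promoters, and 1 to TATAAA, found in 13.6%, and the other two promoters held neither. CANNTG, the E-box that proneural factors bind, was found once in Ina and in neither of the others, against 72.3% of all promoters. No match to 1 motif overlapped a match to another. The share of G and C was 77.7% in Map2, 71.7% in Ina and 43% in Dcx. A match is a description of letters and was not tied to the levels by any test.

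Related cytoskeletal genes were counted in 6 lists. None of 15 tubulin and tubulin cofactor genes tested, 17 microtubule-associated and stathmin-family genes, 10 other intermediate filament genes, 23 kinesin and dynein genes or 8 spectrin and ankyrin genes was called in any of the 7 comparisons. Of 22 growth cone and actin genes 1 was called, Cap1, which encodes an actin-cycling protein that binds adenylyl cyclase in yeast. ES-derived minus embryonic was -3.74 ± 0.36 for Cap1 (adjusted p = 0.00187), and induced minus ES-derived was 3.13 ± 0.44 (adjusted p = 0.0149), in comparisons where 0.899% and 0.806% of all features were called. Its probe was detected on 4 of 4 embryonic, 1 of 4 ES-derived and 2 of 2 induced arrays. Under median scaling neither difference was called, and the second was not called without either induced array. For ES-derived minus embryonic cells, 15 of 17 microtubule-associated and stathmin-family genes were below 0, with a median of -0.75, and 7 of 8 spectrin and ankyrin genes, with a median of -0.81, against -0.13 over all features, of which 41.1% were above 0. The other intermediate filament genes had 9 of 10 below 0, with a median of -0.52. Growth cone and actin genes had 14 of 22 below 0, with a median of -0.35. Kinesin and dynein genes had 15 of 23 below 0, with a median of -0.28. Tubulins and tubulin cofactors had 9 of 15 below 0, with a median of -0.04. Between the gates within ES-derived cells, growth cone and actin genes had a median difference of 1.16, with 17 of 22 above 0, against -0.20 over all features and 2.04 for the 9 genes. The median of the microtubule-associated and stathmin-family genes was -0.25 in that comparison. All these list medians were taken over 10 arrays, and their values without the dim arrays were not computed. For the 9 genes the median between the gates was 0.34 against 0.07 with both ES-derived replicate 1 arrays left out.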

How the data were processed

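Each array gave 1 intensity per probe, which the authors deposited in a non-normalized table. Per the submitters' processing notes it came from BeadStudio, whose version is not stated. Values under 0 show that background had been subtracted within arrays. Per the file headers, every probe has a detection p-value on each array beside its deposited intensity. A second deposited table holds intensity after the authors' normalization between arrays, by a method the sources used here do not give, and served as an alternative. Per the labels' protocols, Trizol RNA went through double amplification before biotin labelling, which can alter relative levels.

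The platform annotation gave 1 gene symbol to 23978 of 25697 probes, several to 0 and none to 1719. Intensities were corrected with normexp (limma 3.58.1, R 4.3.3, detection p-values, offset 16), brought to log2 and quantile normalized. The detection filter (p under 0.01, at least 2 arrays) left 11915 probes, and the probe with the highest mean stood for its gene, which left 9679 features. Origin and gate were fitted in an additive limma model (6 residual degrees of freedom), and gates within origins in a 6-group model (4). Tests were two-sided with Benjamini-Hochberg adjustment over all features. The number of arrays limits the precision, and no pair of the 10 arrays was identical.

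The 10 genes, the related lists and the markers were chosen with earlier results of these data known. All 10 genes were named with all probes. Of a related list up to 4 called genes a comparison were named, and of the most similar genes the 5 with the highest correlation. Alternatives changed the background correction, offset, scaling, filter, probe choice, weights and arrays, and added the replicate number as a block. No column was left unused.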

Additional observations from a re-analysis of the deposited data

Results flagged for a closer look

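Within each origin of 4 arrays, the array farthest from the others was compared with the spread of all 4 for the 9 genes tested, 18 comparisons in all, and 5 passed the 95% critical value of Dixon's test. A rate of about 1 in 20 by chance holds for 4 independent values from 1 normal population. Here each set of 4 arrays pools both gates and differs in signal, and the comparisons share arrays. The count of 5 thus cannot be set against that rate. Nefh measured 9.51 on ES-derived GFP-high replicate 1, with the nearest of the other 3 at 5.08, and Prph measured 7.96 on the same array, with the nearest at 4.64. That array was the dimmest, and Prph was not detected there. Dcx measured 5.25, not detected, on ES-derived GFP-medium replicate 1, with the nearest at 9.20; on this array the pluripotency markers summed to 26403. Map2 measured 10.82 on embryonic GFP-medium replicate 2, with the nearest at 11.16, and Prph measured 5.43 on the same array, with the nearest at 4.73.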

How the results depend on the processing

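Up to 23 alternatives were run for each comparison. Of 1383 values of single genes 1368 kept their side of the threshold and 15 became called; 74 changed sign with neither value called, and 0 with one value called. For induced minus embryonic cells 3 of the genes were called with array weights (Nefh, Nefm, Stmn2; 3135 features called), 2 without the 3 arrays of mean intensity under 100 (Nefh, Stmn2; 1682 called) and 1 with ES-derived replicate 2 arrays only (Stmn2; 1194 called), the last chosen after seeing the data. For induced minus ES-derived cells 1 was called with array weights (Mapt; 1581 called) and 1 without the 3 arrays (Mapt; 1099 called). Leaving out 1 array at a time gave 0 to 4 called for the gate within ES-derived cells and 0 to 3 for its difference from embryonic cells, both highest without ES-derived GFP-high replicate 2 (2672 and 1406 features called), and 0 for the other 5 comparisons. The cause was not tested. For ES-derived minus embryonic cells 0 were called in every alternative run. Features called over all 9679 were 87, 123 and 78 for the 3 comparisons of origins and, under the alternatives, ranged from 6 to 550, 5 to 3135 and 1 to 1581.

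Same-numbered samples correlated between -0.09 and 0.20 in their deviations from group means, so the labels' numbers were not taken as pairs. With the replicate block 0 of the genes were called in each of the 5 comparisons it allows, with 37 features called for ES-derived minus embryonic cells. The 2 comparisons with induced cells have no such fit, since those arrays carry no number. The slide alternative was not run, since no slide is named. Levels under 8.68 on the dimmest array and under 4.69 to 5.68 on the others have only a bound, and with 1 or 2 arrays a group small differences were not detectable.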
